A study of Mus musculus with 96 samples.

Results

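The genes described here encode the proteins of the mitochondrial ribosome. They are the protein-coding gene rows whose mouse symbol begins with Mrpl or Mrps followed by a digit, which gave 78 members of 55401 gene rows, 49 with a large-subunit symbol (Mrpl) and 29 with a small-subunit symbol (Mrps). The series measured RNA in 96 untreated C57BL/6J samples, each 1 oocyte or 1 embryo, to follow the transcriptome closely in time across fertilization and activation of the embryonic genome. Females were superovulated with PMSG and hCG and mated with C57BL/6J males, and embryos were freed of cumulus cells with hyaluronidase and kept in KSOM medium. The 16 groups were 8 oocytes, embryos collected at hours 0, 2, 4, 6, 8, 10, 12, 14, 16, 18, 20, 22, 24 and 36 after fertilization, and 7 morulae of about 84 h. Hours 0, 2, 8, 10, 12, 14 and 20 have 5 embryos each, and the others 2 (4 h), 3 (6 h), 6 (24 h), 8 (16 h, and again 36 h), 9 (18 h) and 10 (22 h). The numbering in the titles does not separate 4 h from 6 h, and both hours rest on the source label alone. The animals' ages are not given in the sources used here. Nothing in the labels says that replicates came from separate females, so p-values measure the spread between these single oocytes and embryos.

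The mitochondrial ribosome sits in the mitochondrial matrix and makes the few respiratory-chain subunits that mitochondrial DNA encodes. Its ribosomal RNAs come from mitochondrial DNA, whereas all its proteins are encoded in the nucleus, made in the cytosol and imported. Oocytes hold a large stock of mitochondria that is divided among the cells of the early embryo, whose mitochondria are structurally immature until later preimplantation stages. The symbols do not follow the subunits exactly: the proteins of Mrps30 and Mrps18a lie in the large subunit, and the protein of Mrps36 is now placed in the 2-oxoglutarate dehydrogenase complex.

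Promoter sequence was compared with other genes because the members are scattered over the genome and many of them were higher in morulae. RefSeq promoters (GRCm38.p6), from 250 bases before to 50 after the start, were found for 69 of the 78 members. The letters CCGGAAG, the core of the site for ETS factors such as GABP (NRF2), stood in 26 of these 69 promoters (37.7%), against 12.9% of 17423 other protein-coding genes. The nuclear respiratory factor site GCGCA-N-GCGC stood in 13 (18.8%), against 7.12%, and the YY1 site AAGATGGCG in 8 (11.6%), against 2.10%. The share with GGGCGG (SP1) was 49.3%, against 49.2%, that with CCAAT (NF-Y) 39.1%, against 42.3%, and that with the E-box CACGTG 7.25%, against 8.92%. Both strands were searched, and in Mrpl12 the match is on the other strand. These are descriptions of letters in a window and say nothing of binding. The 5 stretches printed here lie upstream of the RefSeq start, are read in the direction of the gene, and belong to members whose values are given further on, with the motif in capitals. Mrps18a (ETS) is from chr17:46110953-46111003 (+ strand), Mrpl58 (ETS) from chr11:115403710-115403751 (+ strand), Mrpl22 (ETS) from chr11:58171586-58171642 (+ strand), Mrpl12 (nuclear respiratory factor) from chr11:120484531-120484590 (+ strand) and Mrpl39 (nuclear respiratory factor) from chr16:84735335-84735394 (- strand).
Mrps18a: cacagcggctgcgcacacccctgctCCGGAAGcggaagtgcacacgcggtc
Mrpl58: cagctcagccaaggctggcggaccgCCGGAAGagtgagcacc
Mrpl22: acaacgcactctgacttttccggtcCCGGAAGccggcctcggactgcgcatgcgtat
Mrpl12: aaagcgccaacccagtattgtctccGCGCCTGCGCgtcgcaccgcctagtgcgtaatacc
Mrpl39: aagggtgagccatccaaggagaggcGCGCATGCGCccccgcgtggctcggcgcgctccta

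The 3′ ends were read as well, since libraries primed on poly(A) see tail length as well as amount, and cytoplasmic polyadenylation elements set tail length in the maturing oocyte. In GENCODE M21 transcripts, TTTTAT or TTTTAAT stood in the last 100 bases of 12 of the 78 members (15.4%), against 17.02% of 20990 protein-coding genes. The members' 3′ UTRs were short, with a median of 327 bases, against 849 bases over all protein-coding genes. Among the members that will be described as higher at 0 h than in oocytes, 1 of 18 held an element (5.56%), and among those lower 3 of 12 did (25%). The corresponding shares over all genes tested were 20.4% and 24.2%. The element of the 1 higher member, Mrps17, and those of the 3 lower members are shown with the element in capitals.
Mrps17: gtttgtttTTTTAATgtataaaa
Mrpl51: caatgatcTTTTATgacgtaac
Mrpl53: caagtacaTTTTAATtaaatatt
Mrps2: ttgtactaTTTTAATatatgttt

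Gene counts per library ranged from 10223 in morula replicate 4 and 564266 in the next shallowest library to 6795040, with a median of 2099014. Embryos from 0 h to 36 h were processed as 1 cohort, and oocytes and morulae in batches of their own, so that batch and stage cannot be told apart where either enters a comparison. The labelled stages carried their markers, with some exceptions. Gdf9, an oocyte growth factor, averaged 4510 CPM (counts scaled to library size) in oocytes, while Figla averaged under 1 CPM there, and 5 of 7 oocyte markers tested were higher at 0 h than in oocytes. The 8 markers of the 2-cell stage divided the 24 h embryos: they summed to 1265 and 1562 CPM in replicates 1 and 4 and to between 26.0 and 125.8 CPM in the other 4, against 4.67 to 13.2 CPM at 12 h. In morulae Nanog averaged 8.6 CPM, and Cdx2 was at 0 in 5 of 7 libraries. A pair of libraries stood apart and were kept. The library labelled 10 h replicate 5 goes against its label: oocyte markers summed to 16.0 CPM in it and to between 11906 and 14148 CPM in the other 10 h embryos, and its sums of morula markers (6674 CPM) and of 12 cumulus and granulosa markers (2850 CPM) were the highest of all 96 libraries. Its median correlation with its group was 0.214. It enters no comparison of 2 groups, only the fit of all 96 libraries, and the 10 h values are given with and without it. With this library the morula markers at 10 h summed to 1510 CPM on average, of which Krt18 made up 1288 CPM and Dppa5a 17.1 CPM. In morulae Krt18 averaged 20.2 CPM and Dppa5a 2865 CPM, so the high sum of that library does not have the make-up seen in morulae. Morula replicate 4 had a median correlation of 0.475 and held 91 counts over all members, spread over 45 of them. Counts are shares of a library's RNA, so a smaller amount of one message and a larger amount of others cannot be told apart, and neither can message amount and poly(A) tail length.

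Together the members averaged between 2015 and 2971 CPM in every group before the morula and several times more in morulae. Their summed level was 2353 ± 212 CPM in oocytes (SD, n = 8), 2734 ± 181 at 0 h (n = 5), 2134 ± 138.2 at 12 h (n = 5), 2015 ± 140 at 14 h (n = 5), 2971 ± 958 at 20 h (n = 5), 2523 ± 239 at 24 h (n = 6), 2597 ± 447 at 36 h (n = 8) and 11528 ± 4049 in morulae (n = 7). At 10 h the mean was 2178 ± 256 CPM without the library labelled replicate 5 (n = 4), which alone had 5339 CPM, and 2810 CPM with it. Without replicate 4, which had 3355 CPM, the morulae averaged 12890 ± 2022 CPM (n = 6). The lowest morula was thus below the highest 36 h embryo (3611 CPM), and the other 6 morulae all had 11015 CPM or more. The scaling factor (TMM) that divides the CPM of morula replicate 4 was 2.65, against 0.98 to 1.22 in the other 6 morulae. Where that library stands against the 36 h embryos therefore depends on this factor. Large-subunit symbols made up 8001 ± 2851 CPM and small-subunit symbols 3527 ± 1201 CPM of the morula sum.

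**Figure D1:**
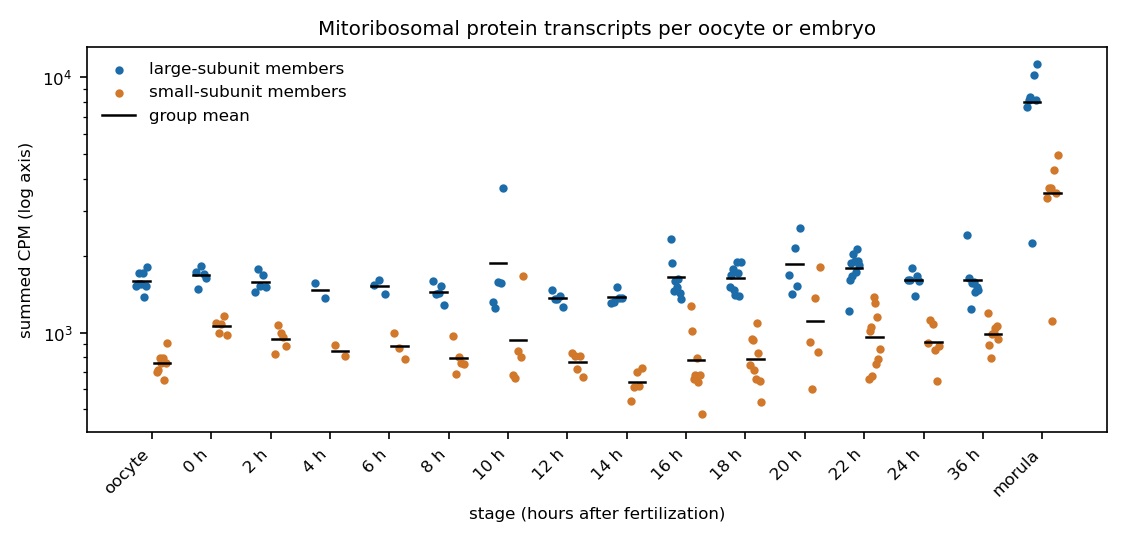
Summed CPM (log axis) of the large-subunit members and of the small-subunit members in each library, by stage in time order; points are single oocytes or embryos and horizontal bars are group means. For both subunits, 6 of 7 morulae stand above all other libraries, and the low morula is replicate 4.

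Single members behaved differently from their sum. Of the 78, 60 had their highest group mean in morulae, or 63 when the 2 libraries that stood apart were left out. Another 4 were highest at 0 h and 4 at 24 h, or 3 and 4 without those libraries. Within the cohort of 0 h to 36 h and without those libraries, 10 members were highest at 0 h, as many at 20 h, 9 at 24 h and 33 at 36 h. All titles at 20 h end in b, so a peak there cannot be told apart from that suffix. With 10 h replicate 5 included, 15 were highest at 10 h and 26 at 36 h. The number of members with any count was 76.6 ± 1.4 in oocytes (n = 8) and 77.2 ± 0.7 at 36 h (n = 8).

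Per kilobase of exon, Mrpl18 had the highest level, with 150 CPM per kb as the mean over the 16 groups. Mrps14 followed with 69.7, Mrps23 with 57.2, Mrpl40 with 56.9 and Mrpl22 with 54.5 CPM per kb. The first 4 keep their places over the 15 groups before the morula, whereas Mrpl22, at 667 CPM per kb in morulae and 3.89 to 41.2 in the other groups, ranks 22 there with 13.7 CPM per kb, and Mrpl21 is the next at 49.01. The lowest were Mrpl11 with 2.19, Mrps35 with 2.18, Mrps10 with 2.15, Mrpl19 with 1.56 and Mrpl23 with 0.134 CPM per kb. The division is by all annotated exon bases, 8631 in Mrps35 and 8079 in Mrps10, so these places depend on annotated length. Mrpl23, a protein of the exit-tunnel region, was too low to be tested in any comparison, and a pseudogene that resembles it, Mrpl23-ps1, drew 3753 counts over all libraries, against 187 for Mrpl23. Reads may have been divided between such copies, so Mrpl23, Mrps36 (7751 counts, against 9502 for Mrps36-ps1) and Mrpl48 (25488 counts, against 10716 for Mrpl48-ps) are uncertain. Mrps31, Mrpl45 and Mrps21 share no exon bases with other genes, yet 49.5%, 53.1% and 46.9% of their values above 0 were not whole. Over all members that share was 24.3%. Reads of Mrps31, Mrpl45 and Mrps21 may thus have been divided with other places in the genome, and their levels are uncertain as well. The exons of Mrpl53, Mrps25 and Mrps34 overlap those of other genes over more than 50% of their length, and libraries carry no strand, so these 3 are uncertain too.

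Between 0 h and 36 h the group means of Mrps31 spanned 5.32 on the log2(CPM + 1) scale, those of Mrpl41 5.10 and those of Mrpl12 4.89, the 3 widest ranges. Mrps31 was at its highest at 0 h, while Mrpl41 and Mrpl12 were at their highest at 36 h. The narrowest ranges were those of Mrpl2 (0.78), Mrpl23 (0.84, at under 1 CPM throughout) and Mrps14 (0.90). Mrps14, a small-subunit protein with a bacterial counterpart, was tested in all 7 comparisons and passed in none. Its group means lay between 162 CPM at 18 h and 304 CPM at 6 h within the cohort.

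**Figure D2:**
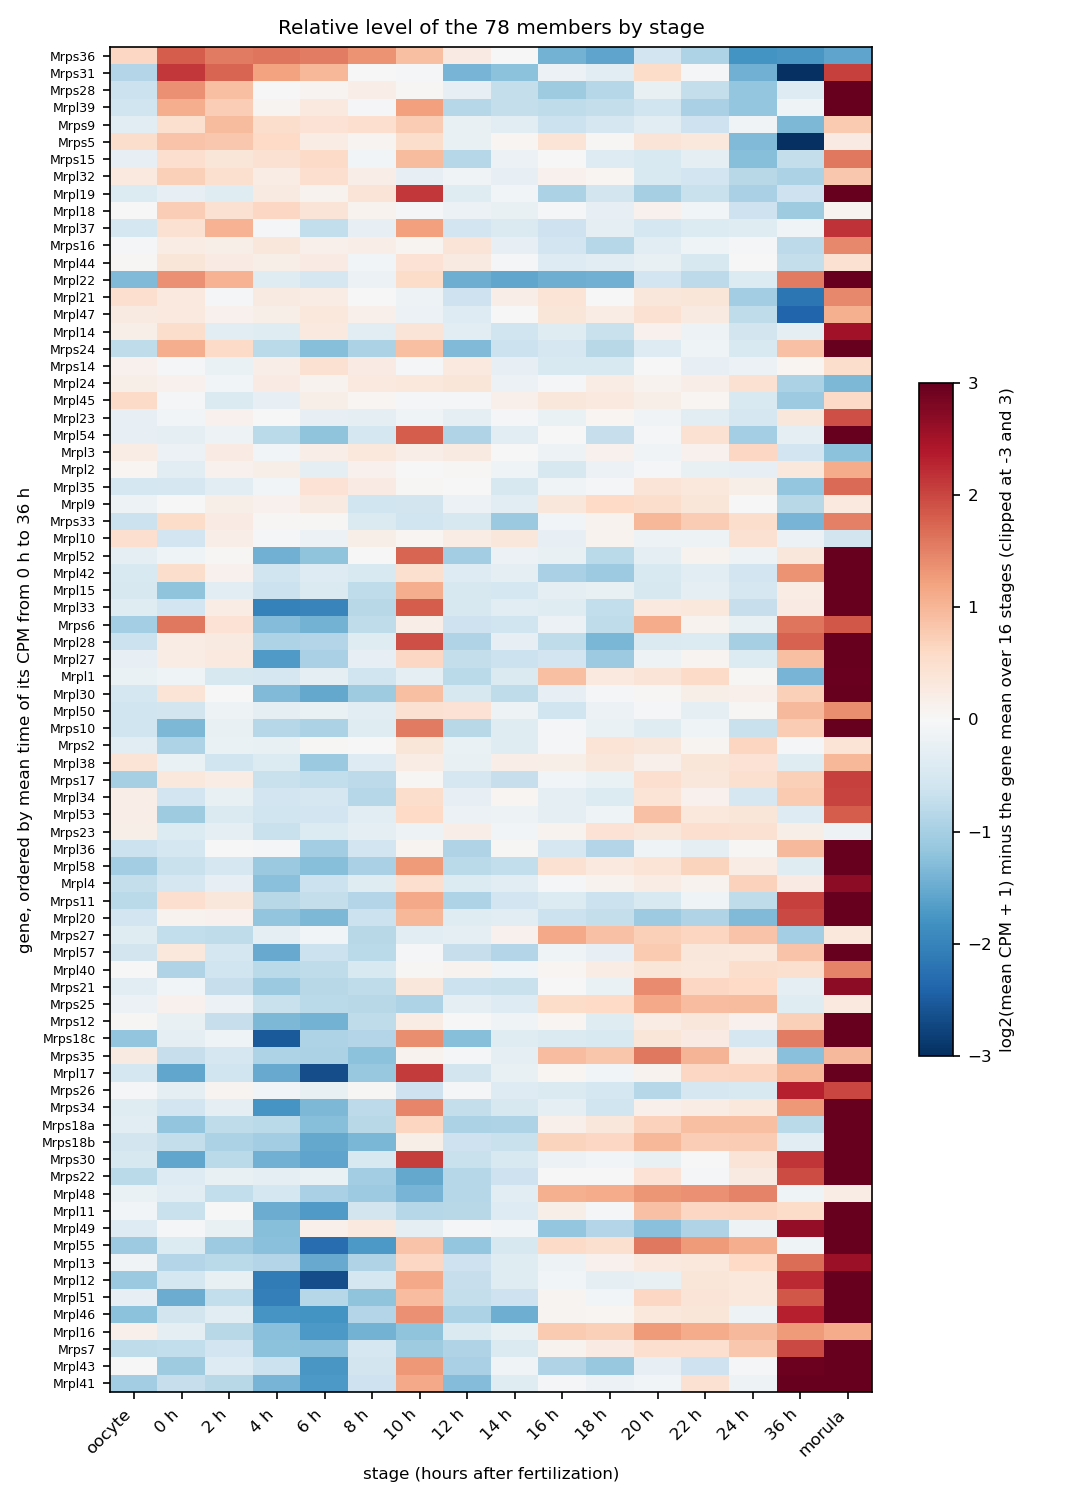
Level of each of the 78 members (rows) by stage (columns, in time order), as the difference of the group mean on the log2(CPM + 1) scale from that member's mean over the 16 groups, with colours clipped at -3 and 3. Most rows are highest in the morula column, and separate sets of rows are high at 0 h, from 16 h to 24 h, and at 36 h. The means include 10 h replicate 5 and morula replicate 4. Within 0 h to 36 h, 15 members are highest at 10 h with these libraries and 0 without them.

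The comparison of 0 h embryos with oocytes asks what differs at fertilization, before the embryonic genome is active. Of 62 members tested, 18 were higher at 0 h and 12 were lower, with a median log2 change of 0.24. Over all 9556 genes tested, 23.3% were higher and 22.5% lower, with a median of -0.02, so that the members' shares lie near those of all genes. Of 24 small-subunit members tested 9 were higher and 4 lower, and of 38 large-subunit members 9 were higher and 8 lower. Calls are at an adjusted p below 0.05 in edgeR's quasi-likelihood test.

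Mrps31, whose protein is found in mitochondrial ribosomes and has no bacterial counterpart, had 80.4, 106.99, 112.4, 121.1 and 148 CPM in the 0 h embryos. Oocytes ranged from 8.70 to 16.2 CPM with a median of 14.3. No 0 h embryo came near any oocyte, and the log2 change was 3.09 ± 0.18 (SE; adjusted p = 1e-12). Mrpl22, a protein that lines the peptide exit tunnel, had 24.5, 30.5, 37.8, 39.2 and 45.7 CPM at 0 h, against 1.64 to 8.09 CPM in oocytes (median 4.45). Its groups did not overlap either, and its log2 change was 2.86 ± 0.26 (adjusted p = 4.3e-09). Mrps6, the counterpart of a bacterial small-subunit protein, had 16.7, 18.7, 38.3, 45.7 and 60.04 CPM, against 1.90 to 9.79 CPM in oocytes (median 4.31), with a log2 change of 2.85 ± 0.36 (adjusted p = 7.2e-07). Its 0 h values varied more among themselves than those of Mrpl22, without reaching the oocytes. Mrps6 shares 19.9% of its exon bases with Slc5a3 and Gm49711 on the same strand, and 75.8% of its values above 0 were not whole. Its counts are therefore uncertain.

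The other 7 of the 10 largest rises were Mrps28 (log2 change 2.12), Mrps24 (2.03), Mrpl39 (1.85), Mrps17 (1.40), Mrps36 (1.25), Mrps33 (1.25) and Mrpl42 (1.06). Of these 10, 7 have small-subunit symbols, as do 24 of the 62 members tested. The groups did not overlap in 12 of the 62 members in the higher direction (19.4%) and in 6 in the lower (9.68%), against 12.2% and 9.85% of all genes tested.

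Among the 12 lower members, Mrpl51 had 3.48, 5.35, 5.97, 6.00 and 7.40 CPM at 0 h, against 9.86 to 20.0 CPM in oocytes, with a log2 change of -1.34 ± 0.29 (adjusted p = 0.00051). Mrpl10, the protein at the base of the stalk that calls in translation factors, averaged 26.1 ± 9.2 CPM at 0 h (n = 5) and 55.98 ± 7.97 CPM in oocytes (n = 8), a log2 change of -1.08 ± 0.20 (adjusted p = 0.00012). The groups overlapped in neither gene. The remaining of the 10 largest falls were Mrps30 (-1.31), Mrpl53 (-1.30), Mrpl17 (-1.22), Mrps35 (-1.03), Mrpl40 (-0.88), Mrpl34 (-0.82), Mrpl13 (-0.78) and Mrps2 (-0.63). Mrpl45, which holds the ribosome at the inner membrane, was lower by a log2 change of -0.62 ± 0.13 (adjusted p = 0.00032), whereas Mrpl12, the stalk protein itself, had 6.06 ± 1.63 CPM at 0 h and 3.67 ± 2.30 CPM in oocytes and did not pass (adjusted p = 0.21).

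Of 5 ribosomal proteins without an Mrp symbol, 3 passed: Dap3, the GTP-binding protein of the small subunit, fell by 0.94 on the log2 scale, Ptcd3, a small-subunit protein with RNA-binding repeats, fell by 0.98, and Chchd1 was higher with a log2 change of 1.62. The list of 15 genes and ribosomal RNAs of mitochondrial DNA had 14 tested and all 14 lower at 0 h, with a median of -1.41. Nuclear-encoded respiratory chain genes had 38 higher and 7 lower of 70 tested, with a median of 0.94 and changes up to 4.76 in Ndufa5. Of 17 assembly factors tested 1 was higher and 5 were lower, the largest fall being that of Fastkd2, an RNA-binding protein needed for the large subunit (-2.81).

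Marker genes of other cells moved between these groups too. The 12 cumulus and granulosa markers summed to 32.1 to 642 CPM at 0 h and 92.4 to 733 CPM in oocytes, with 0 higher and 2 lower of 6 tested. The 2 lower ones, Cyp11a1 (0.538 CPM at 0 h and 178 CPM in oocytes) and Akr1c18 (0.298 CPM at 0 h and over 80 CPM in oocytes), act in steroid synthesis and breakdown, while the median log2 change of the 6 was 0.35. Tnfaip6 averaged 79.3 CPM at 0 h and 23.5 CPM in oocytes, and Inha 24.9 CPM at 0 h and 12.3 CPM in oocytes. Blood and oviduct markers summed to 30.9 to 2321 CPM at 0 h and 18.5 to 139.1 CPM in oocytes. Their part in the members' changes was not tested. When all 96 libraries shared 1 fit, 10 members were higher and 3 lower. Of the members named for this comparison, Mrpl51 (adjusted p = 0.15), Mrps36, Mrpl34, Mrps35, Mrpl13, Mrpl17, Mrps2 and Mrps30 lost their calls in that fit, and Mrps35, Mrpl13 and Mrps2 also under a replicate block by title number. Mrpl13 lost its call without any one oocyte and without 0 h replicate 2, 3, 4 or 5, Mrps2 without most single libraries, Mrpl17 without 0 h replicate 2, 3 or 4, and Mrps30 without 0 h replicate 4.

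**Figure D3:**
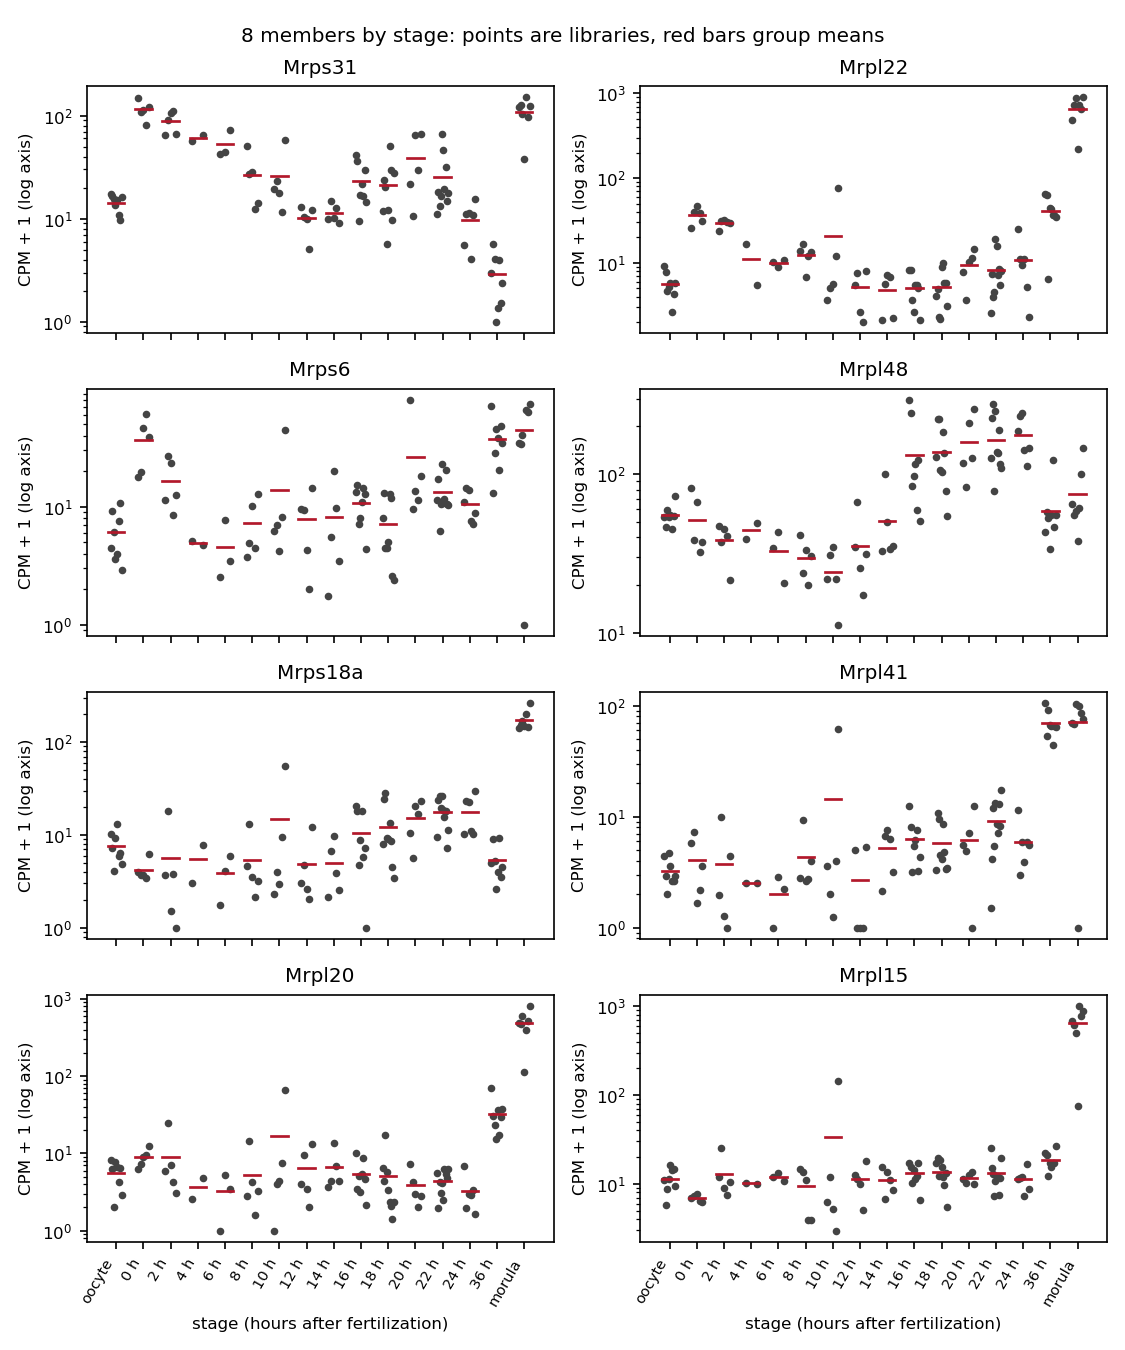
Level of 8 members in every library by stage, as CPM + 1 on a log axis; points are single oocytes or embryos and bars are group means. Mrps31, Mrpl22 and Mrps6 are high at 0 h, Mrpl48 and Mrps18a between 16 h and 24 h, and Mrpl41 and Mrpl20 at 36 h. Mrpl22 and Mrps6 are high again at 36 h, with means of 40.4 and 36.6 CPM. Mrpl22, Mrps18a, Mrpl20 and Mrpl15 are far higher in morulae than in any other group.

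No member passed at 2 h against 0 h in 58 tested, where 4.25% of all genes tested were higher and 4.0% lower. Of the 58, 13 had an unadjusted p below 0.05, as did 2219 of all 8804 genes tested. The members' log2 changes ran between -1.22 and 1.00 with a median of -0.20. The groups did not overlap in 1 of the 58 (1.72%), higher at 2 h, against 4.34% of all genes. DESeq2 called 1 member higher and 1 lower. Leaving out 2 h replicate 2 gave 5 lower members, leaving out 0 h replicate 5 gave 2 higher, and leaving out 0 h replicate 1 gave 1 lower. The 2 h replicate 2 summed to 736 CPM of cumulus and granulosa markers, against 69.3 to 167 CPM in the other 4, and to 2491 CPM of cytosolic ribosomal protein genes, against 915 to 1326 CPM. The part of these in the counts was not tested.

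Within the cohort, 12 h embryos were set against 0 h embryos. Of 56 members tested, 3 were higher and 17 lower at 12 h, with a median log2 change of -0.29. Over the 8211 genes tested 19.7% were higher and 19.4% lower, with a median of -0.02. The count of higher members fell to 1 without 0 h replicate 2, and library size alone as the scale gave 1 higher and 20 lower, with the median of all genes at -0.29. Blood and oviduct markers summed to 4.90 to 15.3 CPM at 12 h and 30.9 to 2321 CPM at 0 h, and the 1 tested, Ovgp1, a secreted protein of the oviduct, was lower (log2 change -3.47). Cumulus and granulosa markers summed to 1055 CPM in 12 h replicate 5, to 120.03 to 287 CPM in the other 12 h embryos and to 32.1 to 642 CPM at 0 h, with 1 of 3 tested higher. Their part in the members' changes was not tested.

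The libraries at 0 h are the same as in the comparison with oocytes, so the values are given side by side and not as a second result. Mrps31 had 4.08, 8.98, 9.41, 11.1 and 12.0 CPM at 12 h, all far below the lowest 0 h value, a log2 change of -3.58 ± 0.28 (adjusted p = 7.8e-08). At hours 2, 4, 6 and 8 its means were 86.8, 59.96, 51.8 and 25.6 CPM. Mrpl22 had 1.02, 1.63, 4.49, 6.59 and 7.00 CPM at 12 h and a log2 change of -2.96 ± 0.42 (adjusted p = 3.3e-05). Its mean was already 10.0 CPM by 4 h.

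Next came Mrps24 (-2.54), Mrps6 (-2.24), Mrpl39 (-2.07), Mrps28 (-1.69), Mrps36 (-1.61), Mrps15 (-1.37), Mrps5 (-1.08) and Mrps33 (-1.07). Mrps5 is the counterpart of a bacterial protein with a part in decoding accuracy. The groups did not overlap in 14 of the 56 members in the lower direction (25%), 13 of them called, and in 2 in the higher (3.57%), against 13.6% and 12.5% of all genes tested. The 3 higher members were Mrpl40 (98.6 ± 19.9 CPM at 12 h and 48.7 ± 10.2 CPM at 0 h, SD, n = 5 each; adjusted p = 0.0021), Mrpl50 (log2 change 1.01, adjusted p = 0.02) and Mrps23 (0.61, adjusted p = 0.031). Mrpl50 lost its call without 0 h replicate 2, and Mrps23 without 0 h replicate 2, 3 or 5 or 12 h replicate 2. Both, and Mrps5, lost their calls in the fit of all 96 libraries, and Mrps23 also under the replicate block.

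Against oocytes, 12 h embryos had 2 higher and 3 lower members of 61 tested, with a median of -0.05, where 13.5% of 9407 genes were higher and 8.42% lower. Mrpl50 was higher, with 22.8, 25.4, 27.5, 35.7 and 39.2 CPM at 12 h and 9.79 to 24.2 CPM in oocytes (log2 change 1.11, adjusted p = 0.0026), and the groups overlapped through 1 oocyte. Mrpl35 was higher (0.54, adjusted p = 0.048), and Mrpl21 (-1.08), Mrpl47 (-0.64) and Mrpl45 (-0.56) were lower, Mrpl45 alone, 1 of 61 (1.64%), with groups that did not overlap, against 3.83% of all genes. Mrpl35 was lost, leaving 1 higher member, in turn without every oocyte but replicate 5 and without 12 h replicates 1, 3 and 4. Without 12 h replicate 5 there were 5 lower members. Library size alone gave 1 higher and 9 lower, and DESeq2's size factors 1 higher and 3 lower. None of the 5 calls held when all 96 libraries shared 1 fit (adjusted p between 0.20 and 0.43), and Mrpl50, Mrpl35 and Mrpl47 also lost theirs under the replicate block. Of the markers of other cells, 1 of 5 cumulus and granulosa genes tested was higher at 12 h than in oocytes, and Ovgp1 was lower (log2 change -4.55). Their part was not tested.

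In the same 0 h and 12 h comparison, the related lists did not all go the members' way. Cytosolic ribosomal protein genes had 0 higher and 16 lower of 36 tested, with a median of -0.74, and respiratory chain genes 5 higher and 34 lower of 60, with a median of -1.39. Genes of mitochondrial DNA had 8 higher and 0 lower of 13, with a median of 0.89. Assembly factors had 5 higher and 2 lower of 14, led by Fastkd2 (79.5 CPM at 12 h and 7.92 CPM at 0 h, log2 change 3.34). Ptcd3 (1.84) and Dap3 (0.71) were both higher at 12 h.

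Embryos at 24 h were set against those at 12 h. The sample labels do not give the number of cells, but by the usual timing of mouse development this interval spans the first, minor activation of the embryonic genome and the first cleavage. Of 70 members tested, 12 were higher and 2 lower at 24 h, with a median log2 change of 0.40. Among all 11083 genes 13.4% were higher and 8.23% lower, with a median of 0.05. Of 28 members with small-subunit symbols tested 8 were higher and 1 lower, and of 42 with large-subunit symbols 4 were higher and 1 lower. The 8 include Mrps18a, whose protein lies in the large subunit, and members whose calls depended on single libraries. Groups did not overlap in 8 of the 70 members in the higher direction (11.4%), 7 of them called, and in 0 in the lower, against 6.85% and 4.01% of all genes. Cumulus and granulosa markers summed to 31.3 to 133.7 CPM at 24 h and 120.03 to 1055 CPM at 12 h, and the 1 tested, Cyp19a1, was lower (log2 change -1.38). Blood and oviduct markers summed to 6.94 to 430 CPM at 24 h and 4.90 to 15.3 CPM at 12 h, with 1 of 2 tested, Hba-a1, higher (4.07). Their part in the members' changes was not tested.

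Mrpl48, a large-subunit protein, ranged from 112.2 to 243 CPM at 24 h with a median of 165, and had 16.3, 24.5, 30.6, 33.9 and 65.9 CPM at 12 h. The groups did not overlap, and the log2 change was 2.38 ± 0.35 (adjusted p = 0.00085). At hours 14, 16, 18, 20 and 22 its means were 49.4, 132.1, 136.2, 158 and 164 CPM, and Mrpl48-ps may share reads with it. Mrpl55 ranged from 8.27 to 42.4 CPM at 24 h and from 1.63 to 6.59 CPM at 12 h (log2 change 2.49 ± 0.53, adjusted p = 0.0049). Mrps7, a protein of the head of the small subunit, averaged 30.5 ± 10.2 CPM at 24 h (n = 6) and 8.64 ± 2.40 CPM at 12 h (n = 5), a log2 change of 1.84 ± 0.34 (adjusted p = 0.0027). Neither overlapped between the groups.

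Mrps18a ranged from 9.15 to 28.7 CPM at 24 h, and had 1.02, 1.63, 2.00, 3.76 and 11.1 CPM at 12 h, so that 1 of the 12 h embryos overlapped the 24 h group. Its log2 change was 1.96 ± 0.58 (adjusted p = 0.026), and 2.98 without that embryo, 12 h replicate 5, which also has the 1055 CPM of cumulus and granulosa markers. The call was lost, with adjusted p up to 0.071, without 12 h replicate 1, 3 or 4 or 24 h replicate 2 or 3. The other higher members were Mrpl16 (1.53), Mrps21 (1.32), Mrpl13 (1.26), Mrps25 (1.25), Mrps22 (1.23), Mrps27 (1.18), Mrps33 (1.05) and Mrps17 (1.04). Mrps27, an RNA-binding protein of the small subunit, and Mrps22 each lost their call without most single libraries, and Mrps21 lost its call without 12 h replicate 3. Mrps18a, Mrps22 and Mrps27 also lost theirs under the replicate block, and Mrps22 and Mrps27 in the fit of all libraries.

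The lower members were Mrps36 (8.43 ± 4.32 CPM at 24 h and 37.3 ± 24.0 CPM at 12 h, log2 change -2.16 ± 0.46, adjusted p = 0.0053) and Mrpl32 (-0.69, adjusted p = 0.046). Mrpl32, whose import form is cut by a membrane protease before it can be assembled, lost its call without 12 h replicate 1, 3 or 5 or any 24 h embryo but replicate 5. Without 12 h replicate 3 there were 7 higher members. Without 24 h replicate 5 there were 5 lower members. Without the 2 embryos at 24 h whose titles end in b, a suffix whose meaning is not stated, 19 were higher and 9 lower.

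Embryos at 16 h were set against those at 14 h without a test, and the groups did not overlap in 3 of 77 members of mean CPM at least 1. Mrpl1, of the mobile stalk of the large subunit, ranged from 21.1 to 81.1 CPM at 16 h (median 35.9) and from 10.6 to 20.5 CPM at 14 h (median 15.0). Mrps35 ranged from 16.2 to 48.1 CPM at 16 h and from 6.88 to 16.0 CPM at 14 h. Mrpl10 was lower, at 18.3 to 45.2 CPM at 16 h and 45.9 to 55.9 CPM at 14 h. Of all genes at that level, 1.84% were higher and 1.29% lower without overlap, so the members' 2 higher and 1 lower of 77 lie near those shares. Titles ending in b occur at 16 h and not at 14 h, and the part of that suffix was not tested.

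**Figure D4:**
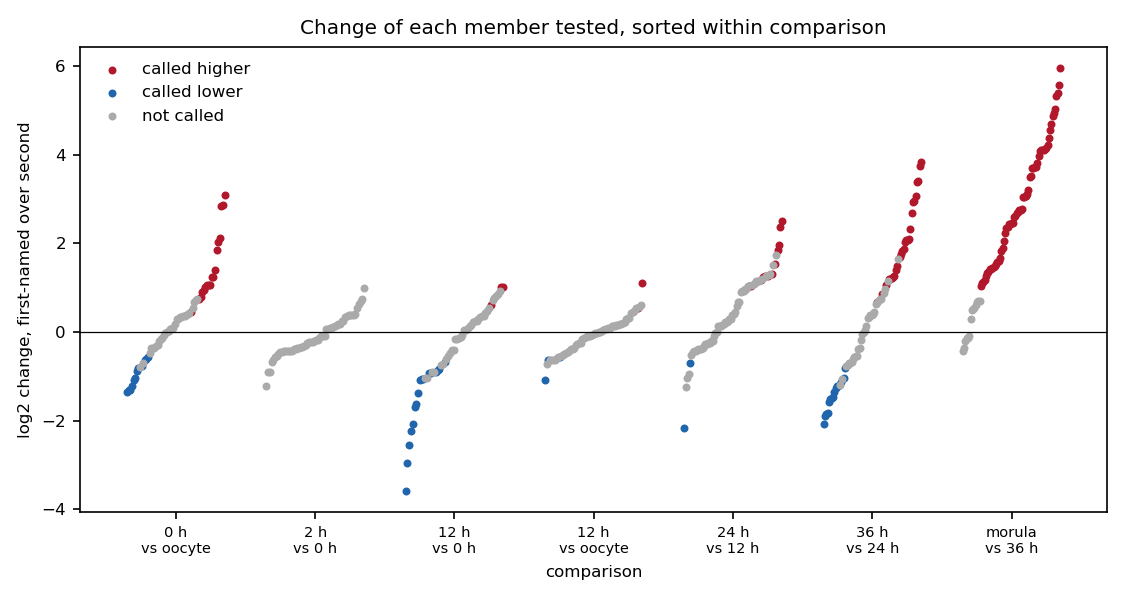
Log2 change of each tested member (1 point each, sorted within the comparison) in each of the 7 comparisons, the first-named group over the second; red points were called higher, blue points lower and grey points not called at an adjusted p of 0.05. Changes lie on both sides of 0 up to 36 h against 24 h, while in morulae against 36 h 63 of 77 members are called higher and 0 lower.

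The embryos at 36 h were set against the 24 h embryos, an interval that by the same timing spans the major activation of the genome. Of 74 members tested 27 were higher and 15 lower at 36 h, with a median log2 change of 0.40, and 29.1% of 12636 genes were higher and 23.2% lower with a median of 0.05. With library size alone as the scale the split was 33 higher and 11 lower, and the median of all genes 0.29. Of the large-subunit members 17 were higher and 6 lower of 46, and of the small-subunit members 10 were higher and 9 lower of 28.

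Mrpl41, of the large subunit, ranged from 43.1 to 104.1 CPM at 36 h with a median of 65.1, and from 1.96 to 10.4 CPM at 24 h with a median of 4.76. The groups were far apart, with a log2 change of 3.84 ± 0.38 (adjusted p = 1.2e-06). Mrpl20, a large-subunit protein with a bacterial counterpart, ranged from 14.4 to 70.1 CPM at 36 h (median 29.4) and from 0.652 to 5.86 CPM at 24 h (median 1.96), with a log2 change of 3.75 ± 0.50 (adjusted p = 2.2e-05). Again no value was shared. Mrpl43 (3.41), Mrps11 (3.38), Mrpl28 (3.08), Mrpl49 (2.96), Mrps26 (2.94), Mrpl46 (2.67), Mrps18c (2.32) and Mrpl22 (2.09) made up the rest of the 10 largest rises. At 24 h Mrpl43 averaged 1.46 and Mrps11 1.07 CPM per kb. Mrpl43, Mrps11 and Mrpl20 were so low at 24 h that they entered the test through the 36 h embryos and could be called only higher. Mrpl43 shares 33.4% of its exons with Twnk on the other strand, the gene of the mitochondrial DNA helicase.

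Stalk protein Mrpl12 averaged 46.6 ± 26.3 CPM at 36 h (n = 8) and 11.6 ± 3.6 CPM at 24 h (n = 6) and was higher by a log2 change of 2.08 ± 0.35 (adjusted p = 0.00016). Mrpl2, of the core of the large subunit, was higher by 0.67 ± 0.24 (adjusted p = 0.025), as was Mrps30 by 1.88 ± 0.35 (adjusted p = 0.00031). Mrps12, at the decoding centre, averaged 16.5 ± 6.3 CPM at 36 h and 10.5 ± 2.3 CPM at 24 h and did not pass (adjusted p = 0.079).

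Mrps18a had a median of 3.72 CPM at 36 h and a highest value of 8.27 CPM, below the lowest 24 h embryo, with a log2 change of -1.82 ± 0.45 (adjusted p = 0.0027). Mrpl48 averaged 57.4 ± 27.2 CPM at 36 h and 177 ± 53 CPM at 24 h, a log2 change of -1.52 ± 0.28 (adjusted p = 0.00032). Mrps33 ranged from 17.8 to 40.2 CPM at 36 h and from 70.4 to 149 CPM at 24 h, a log2 change of -1.85 ± 0.26 (adjusted p = 3.1e-05). Mrpl48 overlapped slightly between the groups, and Mrps18a and Mrps33 did not. The 24 h libraries are shared with the earlier interval, so these are not independent of its values.

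Others of the 10 largest falls were Mrps31 (-2.07), Mrps27 (-1.89), Mrpl47 (-1.59), Mrps35 (-1.49), Mrpl1 (-1.47), Mrpl24 (-1.35) and Mrpl35 (-1.27). Mrpl3, close to the peptidyl transferase centre, fell to 56.9 ± 21.1 CPM at 36 h, against 132.02 ± 23.9 CPM at 24 h (log2 change -1.13 ± 0.24, adjusted p = 0.001). Mrps31, Mrpl47 and Mrps35 lost their calls without the 24 h embryos whose titles end in b, Mrps31 and Mrps35 also under the replicate block, and Mrps35 also without 24 h replicate 6 or with library size alone. Mrps5 averaged 0.552 CPM at 36 h and 6.25 CPM at 24 h and was too low to be tested.

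Cytosolic ribosomal protein genes had 68 higher and 2 lower of 78 tested, with a median of 2.06, and all 15 genes of mitochondrial DNA were higher, with a median of 1.65. The respiratory chain list had 35 higher and 9 lower of 74. Translation factors of mitochondria had 1 higher and 5 lower of 13, among them Gfm1, an elongation factor (-2.04). Assembly factors were split 5 higher to 7 lower of 21, from Mettl15, a ribosomal RNA methyltransferase of the small subunit (-4.10), to Mrm1, a ribosomal RNA methyltransferase of the large subunit (4.48). Of 9 regulators of nuclear mitochondrial genes tested, 5 were higher and 1 lower. Gabpa, which encodes the DNA-binding subunit of GABP, averaged 243 CPM at 36 h and 24.0 CPM at 24 h (log2 change 3.37, adjusted p = 0.0044), and Nrf1, the nuclear respiratory factor, fell by 1.08 on the log2 scale. The part of the regulators in the members' changes was not tested. The cumulus and granulosa markers summed to 21.3 to 434 CPM at 36 h and 31.3 to 133.7 CPM at 24 h. Of 3 tested, Cyp11a1 (log2 change 4.53) and Tnfaip6 (2.52) were higher and Cyp19a1, at 52.9 CPM or more in every earlier group, was lower (-3.64). Blood and oviduct markers summed to 42.4 to 358 CPM at 36 h and 6.94 to 430 CPM at 24 h, and of 3 tested Epcam, an epithelial adhesion protein, was higher (77.8 CPM at 36 h and 5.10 CPM at 24 h, log2 change 3.97). Their part in the changes was not tested.

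In morulae, 63 of 77 members tested were higher than at 36 h and none was lower, with a median log2 change of 2.45. Among all 11216 genes 28.2% were higher and 43.5% lower, with a median of -0.55. DESeq2 called 64 members higher and 2 lower, and edgeR with DESeq2's size factors 63 higher and 2 lower. At an unadjusted p below 0.05 there were 65 of the 77 members in either direction, and 8264 of all 11216 genes. The median of all genes moved to -0.88 with those factors and to -0.78 with library size alone. Both subunits took part, with 41 of 48 large-subunit and 22 of 29 small-subunit members higher.

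Mrps31, last seen at up to 4.74 CPM in 36 h embryos, had 36.9 CPM in the shallowest morula and 95.1 to 150 CPM in the other 6. The log2 change was 5.95 ± 0.50 (adjusted p = 3.8e-10), and no morula was as low as the 36 h embryos, though the 36.9 CPM of the shallowest morula, replicate 4, is 1 count. Mrpl33, a small large-subunit protein, ranged from 110.6 to 431 CPM in morulae (median 313) and from 3.35 to 13.9 CPM at 36 h (median 6.22), a log2 change of 5.57 ± 0.40 (adjusted p = 6.2e-11). Mrps18a ranged from 140 to 262 CPM in morulae (median 153) and from 1.60 to 8.27 CPM at 36 h, a log2 change of 5.38 ± 0.37 (adjusted p = 4.1e-11). Neither gene overlapped between the groups. The lowest Mrpl33 value, that of morula replicate 4, rests on 3 counts, and that library's Mrps18a value on 4.

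Mrpl15, a large-subunit protein with a bacterial counterpart, reached the highest of these levels, with 73.7 CPM (2 counts) in morula replicate 4 and up to 1001 CPM in the others (median of all 689), against 11.2 to 25.8 CPM at 36 h. Its log2 change was 5.32 ± 0.40 (adjusted p = 1.1e-10). Mrpl54 (5.04), Mrps5 (4.94), Mrpl58 (4.87), Mrpl1 (4.69), Mrpl19 (4.56) and Mrps18b (4.37) completed the 10 largest rises. Mrps5, at a mean of 0.552 CPM at 36 h, and Mrps31, at 1.88 CPM, entered the test through the morulae and could be called only higher. Mrpl58 is the large-subunit protein that can release stalled peptides from their transfer RNA, and averaged 213 ± 114.01 CPM in morulae (n = 7) and 8.16 ± 4.12 CPM at 36 h (n = 8). Mrpl54 was at 0 CPM in morula replicate 4 and at 119.6 CPM or more in the other 6.

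Members known for particular tasks rose as well. Mrpl12 averaged 269 ± 116.4 CPM in morulae and 46.6 ± 26.3 CPM at 36 h (log2 change 2.69 ± 0.35, adjusted p = 2.5e-07), Mrps12 95.8 ± 47.8 CPM and 16.5 ± 6.3 CPM (2.75 ± 0.35, adjusted p = 2.4e-07), and Mrpl45 152 ± 54 CPM and 47.2 ± 25.6 CPM (1.84 ± 0.34, adjusted p = 3.6e-05). Those that did not pass included Mrpl3, at 35.3 ± 21.3 CPM in morulae and 56.9 ± 21.1 CPM at 36 h (log2 change -0.43, adjusted p = 0.23), Mrpl10 (-0.14, adjusted p = 0.74), Mrps14 (0.60, adjusted p = 0.1), Mrps2 (0.71, adjusted p = 0.072) and Mrps36 (0.49, adjusted p = 0.3).

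The groups did not overlap in 25 of the 77 members in the higher direction (32.5%) and in 0 in the lower, against 5.63% and 22.9% of all genes tested. Without morula replicate 4, whose 10223 counts leave many members at 0 or 1 count, the number was 54, with 18.3% of all genes. Leaving out any single library of either group kept the count of higher members between 63 and 67 and that of lower members at 0.

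Cytosolic ribosomal protein genes were higher in 81 of 82 tested, with a median of 3.84, and respiratory chain genes in 68 of 75, with a median of 2.62. Genes of mitochondrial DNA went the other way, with 0 higher and 12 lower of 15 and a median of -1.43. Assembly factors had 8 higher and 4 lower of 24 tested, the largest fall being that of Nsun4, a methyltransferase for mitochondrial ribosomal RNA (4.32 CPM in morulae and 196 CPM at 36 h, log2 change -5.18). Of the ribosomal proteins without an Mrp symbol, Chchd1 (5.44) and Gadd45gip1 (3.57) were among 3 higher, and Ptcd3 was lower (-0.99). Of 9 regulators of nuclear mitochondrial genes tested, 2 were higher and 2 lower. Gabpa was lower (-0.91, adjusted p = 0.007) and Yy1 higher (1.46, adjusted p = 0.00062). Cumulus and granulosa markers summed to 0 to 36.9 CPM in morulae and 21.3 to 434 CPM at 36 h, with the 1 tested, Tnfaip6, lower (log2 change -4.94), and blood and oviduct markers to 20.5 to 147 CPM in morulae and 42.4 to 358 CPM at 36 h, with all 3 tested lower. Their part in the changes was not tested, and batch cannot be told apart from stage.

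**Figure D5:**
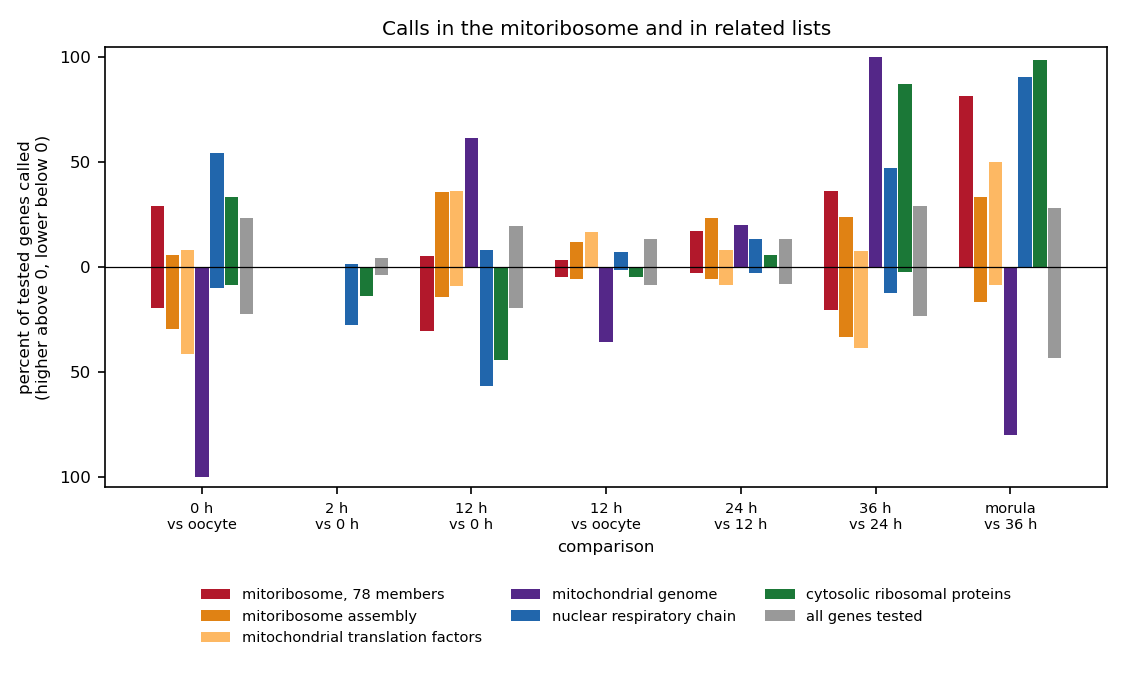
Percent of tested genes called in each comparison at an adjusted p below 0.05, higher drawn above 0 and lower below 0, for the 78 members, 5 related lists and all genes tested. In morulae against 36 h the members have 81.8% higher and 0% lower, against 28.2% and 43.5% of all genes.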

How the data were processed

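RNA of 96 single oocytes and embryos was made into SMART-Seq v4 and Nextera XT libraries, per the labels' protocols. SMART-Seq v4 primes on poly(A) and does not keep strand. The deposited table holds expected counts per gene. Per the submitters' processing notes, reads went through Trimmomatic 0.39, STAR and featureCounts on mm10, and the annotation release is not given in the sources used here. Of the members' values above 0, 24.3% were not whole, so the authors' counting divided reads. Counts were rounded, and 873 repeat families were left out of library totals. Symbols came from GENCODE M21 (55141 identifiers matched without version, 260 had none).

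Levels are CPM on TMM-scaled library sizes over all 96 libraries. Each of 7 comparisons was fitted on its 2 groups alone in edgeR 4.0.16 (R 4.3.3): filterByExpr, TMM, robust quasi-likelihood F test, two-sided, Benjamini-Hochberg over all genes tested, threshold 0.05. The filter keeps a gene with enough counts in as many libraries as the smaller group holds. A member near the floor in 1 group could thus enter through the other and be called only higher there. Alternatives were other scalings, no filter, DESeq2 1.42.0, 1 fit of all libraries, a block by title number, and leaving out each library. Per-kilobase levels use the union of a gene's exons. Of the members, 53 were tested in all 7 comparisons, 1 in none, and 2 were never called. Named are the 10 largest changes each way past the test, members with a described role, the extremes of level and range, and, of related lists, the 2 largest changes each way. The members and lists were chosen with earlier results of these data known.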

Additional observations from a re-analysis of the deposited data

Results flagged for a closer look

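By Dixon's test, 1 library stood far from the others in 14 of 100 groups of values. Chance flags about 1 in 20, or about 5 here, but the groups of values are not independent. The sum of all members contains the 2 subunit sums, so 14 and 5 cannot be weighed against each other. The library labelled 10 h replicate 5 was high in the summed level of all members (5339 CPM, next 2426 CPM), of large-subunit symbols (3677 CPM) and of small-subunit symbols (1662 CPM), and it also held the highest sum of cumulus and granulosa markers, 2850 CPM. Morula replicate 4, the library with 10223 counts and a TMM factor of 2.65, was low on this scale in the same 3 sums, at 3355, 2249 and 1106 CPM. The 36 h replicate 1 was high in the sum of all members (3611 CPM), in that of large-subunit symbols (2413 CPM) and in Mrpl20 (70.1 CPM, next 36.2 CPM). The 24 h replicate 1 was high in Mrpl20 (5.86 CPM) and Mrpl41 (10.4 CPM). Single flags were Mrpl50 in oocyte replicate 2 (24.2 CPM, next 13.9 CPM), Mrpl32 in 24 h replicate 4 (45.05 CPM, low), and Mrps18a in 12 h replicate 5 (11.1 CPM, next 3.76 CPM).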

How the results depend on the processing

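Counts of called members are compared with those of the pairwise edgeR fit. One fit of all 96 libraries gave 10 higher and 3 lower at 0 h against oocytes, 1 higher and 11 lower at 12 h against 0 h, and 0 and 0 at 12 h against oocytes. Library size alone gave 1 higher at 12 h against 0 h, 1 higher and 9 lower at 12 h against oocytes, and 1 lower at 24 h against 12 h. DESeq2's size factors gave 1 higher at 12 h against oocytes and 2 lower in morulae. DESeq2 gave 1 higher and 1 lower at 2 h and 2 lower in morulae. Without the filter there was 1 lower at 2 h, 1 higher at 12 h against oocytes, and 1 lower at 24 h. Without the titles ending in b, 24 h had 19 higher and 9 lower. Deviations of samples with the same title number correlated between -0.18 and 0.23, which in groups this small cannot show whether the numbers pair samples. A replicate block by these numbers gave 18 higher and 7 lower at 0 h, 0 and 0 at 2 h, 2 and 17 at 12 h against 0 h, 0 and 2 at 12 h against oocytes, 11 and 5 at 24 h, 21 and 12 at 36 h, and 61 and 0 in morulae.

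Leaving out 1 library at a time gave 18 to 19 higher and 8 to 12 lower at 0 h, 0 to 2 and 0 to 5 at 2 h, 1 to 4 and 15 to 20 at 12 h against 0 h, 1 to 3 and 3 to 5 at 12 h against oocytes, 7 to 17 and 1 to 5 at 24 h, 23 to 30 and 13 to 18 at 36 h, and 63 to 67 and 0 in morulae. No named member changed sign under any alternative run. The block moved Mrpl1 to -2.07 and Mrpl49 to 3.70 at 36 h. The cause of these shifts was not tested. Members below a few CPM and the shallow morula limit what could be tested.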
